A study of Penaeus vannamei with 6 samples.

Results

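Gill transcript levels in fresh water were compared with those in brackish water, per component of a transcriptome assembly. A component is a group of assembled transcripts that share sequence, and its level here is the sum of the RPKM of its transcripts, which counts reads relative to transcript length and to library depth. The components were kept by 1 rule, a mean summed RPKM of at least 5 over the 4 libraries compared, which left 8730 of 321483 components. The animals were juvenile whiteleg shrimp, Penaeus vannamei, of which the gill was taken after culture in fresh water (2 libraries), brackish water (2 libraries) or seawater (2 libraries). The labels give no strain, age in days, salinity value or length of culture, and do not say whether a library came from 1 animal or from several. They do not say either that the 2 libraries of a group were separate cultures, so the p-values below measure the spread between these libraries, which may be technical. For each component that spread was drawn in large part from other components of similar level. The seawater libraries entered the test only through the estimate of the spread, and their levels are given beside the comparison.

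The gill of a shrimp is the main organ of ion exchange with the water. In dilute water the animal keeps its blood saltier than its surroundings, and the gill epithelium takes up sodium and chloride through pumps and transporters, with the sodium/potassium ATPase, the proton ATPase and carbonic anhydrase as the best known enzymes. Brackish water can lie near the point at which blood and water have the same osmolality, whereas fresh water demands uptake against a steep gradient. The files pair the transcript identifiers with no gene name, so none of these genes could be looked up, and the labelled tissue could not be checked against gill markers or markers of blood cells. In whole gill, fewer cells of a type and less RNA per cell cannot be told apart.

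The kept components held 17369 of the 341828 transcripts, and 5197 of them consisted of a single transcript. Their median mean level was 11.9 RPKM, 5930 lay below 20 RPKM and 108 reached 1000 RPKM or more. The longest transcript of a kept component had a median of 1634 bases, against 256 bases over all components of the assembly. The kept components took between 90.3% and 98.3% of the reads of the 4 libraries, whose depths ran from 23195528 to 37027007 reads. Just inside the threshold, a component stood at 5.27 and 0.210 RPKM in brackish water and at 5.67 and 8.85 RPKM in fresh water. Just outside it, a component stood at 8.20 and 0.788 RPKM in brackish water and at 4.38 and 6.64 RPKM in fresh water. Both of these edge components were low in brackish water library 2 alone.

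The 2 brackish water libraries lay far further apart than the 2 fresh water libraries, and this bears on every result below. The median difference between the brackish water libraries, regardless of sign, was 1.87 on the log2(RPKM + 1) scale, against 0.33 between the fresh water libraries. The brackish water difference was the larger for 8111 of the 8730 components. Library 2 was the lower one for most components, with a median level of 3.46 RPKM against 13.6 in library 1 and 12.9 and 15.4 in the fresh water libraries. It lay at least 4-fold below the other 3 libraries in 2005 components, whereas brackish water library 1 did so in 144 and the fresh water libraries 1 and 2 in 7 and 36. It also lay at least 4-fold above the other 3 in 153 components, against 16, 8 and 1 for the same libraries in that order. The comparison therefore reads differently by library pair. Fresh water minus brackish water library 1 had a median log2 difference of -0.11 and 0.16 for fresh water libraries 1 and 2. Against brackish water library 2 the medians were 1.64 and 1.95. The fresh water libraries were thus close to brackish water library 1 in the middle of the distribution and well above brackish water library 2.

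**Figure D1:**
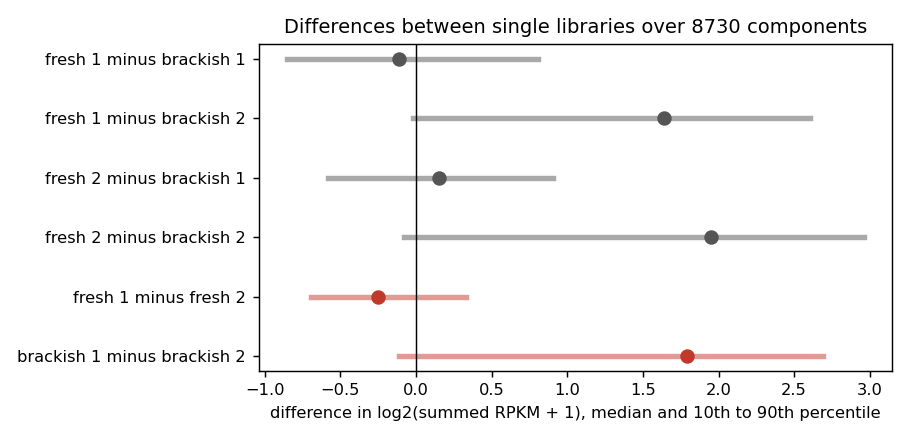
Difference in log2(summed RPKM + 1) between single libraries over the 8730 components, with the median as a point and the 10th to 90th percentile as a bar, grey between groups and red within a group. The medians against brackish water library 1 were -0.11 and 0.16, those against library 2 were 1.64 and 1.95, and the 2 brackish water libraries differed by a median of 1.79.

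By limma on all 6 libraries, 8 components changed between fresh and brackish water at an adjusted p under 0.05, which is 0.0916% of those tested. Of these, 7 fell in fresh water (0.0802%) and 1 rose (0.0115%). The 7 that fell were abundant in brackish water. They held ranks 1, 2, 3, 4, 7, 18 and 128 by mean level over the 4 compared libraries, a mean to which the brackish water libraries contributed most. Their mean in brackish water was 8.52 to 23.3 times their mean in fresh water. The component that rose, at rank 92, had a mean in fresh water 14.8 times that in brackish water. In all 8 the 2 groups did not overlap.

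The component comp248534_c0 showed the largest fall among those called. It stood at 1286 and 1956 RPKM in brackish water and at 68.8 and 70.3 RPKM in fresh water. Every brackish water value lay far above every fresh water value, with a ratio of 18.3 between the closest 2 libraries, and the seawater libraries, at 56.6 and 125 RPKM, lay near the fresh water level. From 1621 ± 474 RPKM (SD, n = 2) to 69.5 ± 1.02 RPKM (SD, n = 2), it had a log2 fold change of -4.49 (SE 0.68; adjusted p = 0.00411 by limma). Of its 2 transcripts, the one of 745 bases carried 98.8% of the summed level and went from 1277 and 1940 RPKM to 58.9 and 63.0 RPKM. The other, of 1005 bases, stood at 8.79 and 16.0 RPKM in brackish water and at 9.93 and 7.25 RPKM in fresh water, so its groups overlapped.

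The component comp247881_c0 consists of 1 transcript of 2596 bases. It stood at 5575 and 18159 RPKM in brackish water and at 1127 and 435 RPKM in fresh water. The groups did not overlap, but each was spread, with brackish water library 2 at 3.26 times library 1 and fresh water library 1 at 2.59 times library 2. From 11867 ± 8898 RPKM (SD, n = 2) to 781 ± 489 RPKM (SD, n = 2), it had a log2 fold change of -3.84 (SE 0.54; adjusted p = 0.00277 by limma). In seawater it stood at 979 and 885 RPKM, between the 2 fresh water libraries.

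The 5 other components that fell resembled comp247881_c0 in the order of the libraries. The most abundant component of the comparison was one of them, with 15263 and 53956 RPKM in brackish water and 3196 and 1461 RPKM in fresh water. Its seawater levels were 3165 and 3230 RPKM, close to fresh water library 1. It had a log2 fold change of -3.73 (SE 0.47; adjusted p = 0.00147 by limma), the smallest p of the comparison. The component of rank 2 stood at 15413 and 50421 RPKM in brackish water, 4789 and 2449 RPKM in fresh water, and 15776 and 4546 RPKM in seawater. It was the exception among the 7 in seawater, since seawater library 1 reached the level of brackish water library 1, whereas in the other 6 both seawater libraries lay below both brackish water libraries. That was so for 1190 of all 8730 components and for 47 of the 430 whose fresh water libraries both lay below both brackish water libraries. The component of rank 3 stood at 11734 and 36580 RPKM in brackish water and at 2854 and 954 RPKM in fresh water. The component of rank 4 stood at 8335 and 25502 RPKM in brackish water and at 2396 and 982 RPKM in fresh water. In both, the 4 libraries kept the order described for comp247881_c0. The component of rank 18 stood at 2578 and 7538 RPKM in brackish water and at 726 and 461 RPKM in fresh water. These 5 had log2 fold changes from -3.73 to -2.93.

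In all 7 components that fell, brackish water library 2 was the highest of the 4 libraries, and in 6 of the 7 fresh water library 2 was the lowest. Brackish water library 2 was 1.52 to 3.54 times library 1, with a median of 3.12, while the median ratio over the 8665 components with reads in library 1 was 0.227. Fresh water library 1 was 0.980 to 2.99 times library 2, with a median of 2.19 against 0.829 over all components with reads in library 2. In brackish water all 7 thus ran against the bulk of the components. In fresh water 6 of the 7 did so, comp248534_c0 being the exception. Among abundant components this was less rare in brackish water. Library 2 was the higher one in 48 of the 108 at 1000 RPKM or more and in 16 of the 20 most abundant. Of these 20, 6 were among the 7. The 7 were also chosen as lower in fresh water, which in itself favours a high brackish water library 2. Among the 430 components lower in fresh water without overlap, library 1 was the higher one in only 44.0%. Together the 7 made up 12.5% and 40.8% of all reads in brackish water, 3.17% and 1.31% in fresh water, and 6.30% and 2.62% in seawater. The components of rank 1 and rank 2 were the larger part, with 10.5% and 14.4% of the reads of brackish water library 2.

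**Figure D2:**
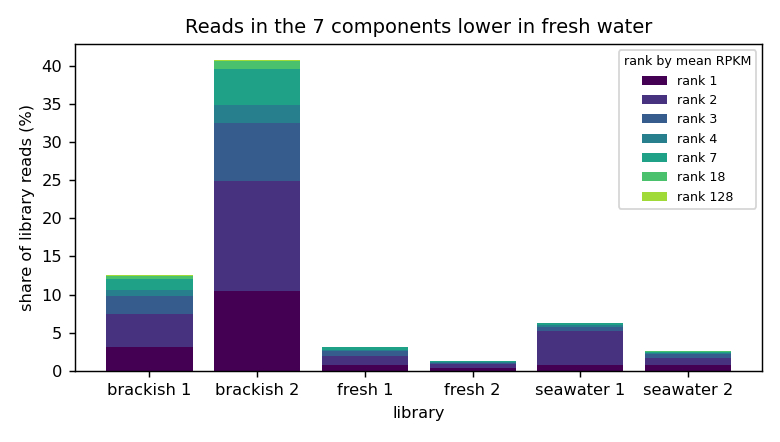
Share of the reads of each library, in percent, that fell in the 7 components lower in fresh water, stacked by component and labelled by rank of mean RPKM. The 7 bars add up to 12.5% and 40.8% in brackish water, to 3.17% and 1.31% in fresh water and to 6.30% and 2.62% in seawater.

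Within these 7 components the difference was shared by the transcripts that carried the level. They hold 31 transcripts, of which 21 had a mean of at least 5 RPKM. Of these 21, 17 were lower in both fresh water libraries than in both brackish water libraries, and none of the 31 was higher in both. Over all 9798 transcripts of at least 5 RPKM, 586 were lower in this way and 3354 were higher. The 7 components were chosen for a lower sum, which largely fixed the direction of the transcripts that make it up. The exceptions among the 21 were minor forms by their mean level. The largest was a transcript of 424 bases in the component of rank 2. It stood at 625 and 1290 RPKM in brackish water and at 761 and 997 RPKM in fresh water. This transcript made up 5.03% of the mean of its component, to which brackish water contributed most. In fresh water, where the component stood at 4789 and 2449 RPKM, it was a larger part of the level. Transcripts of 1 component share sequence, so the authors' counting may split reads between them. Because RPKM divides by length, a sum over transcripts of unequal length depends on that split, while the summed reads behind the shares of each library do not.

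The component comp224870_c0 was the only one that rose in fresh water by this test. It stood at 140 and 148 RPKM in brackish water and at 2494 and 1767 RPKM in fresh water. The brackish water libraries, which differed widely elsewhere, were nearly equal here on RPKM. Divided by the TMM factors described below they were not, at 94.2 and 385 RPKM. On RPKM the lowest fresh water value was 11.9 times the highest brackish water value. From 144 ± 5.63 RPKM (SD, n = 2) to 2130 ± 514 RPKM (SD, n = 2), it had a log2 fold change of 3.85 (SE 0.59; adjusted p = 0.00415 by limma). In seawater it stood at 361 and 190 RPKM, above brackish water and below fresh water. Both of its transcripts were higher in fresh water. The one of 1112 bases went from 84.6 and 89.1 RPKM to 1487 and 1052 RPKM, and the one of 1391 bases from 55.7 and 59.2 RPKM to 1007 and 715 RPKM. Leaving out fresh water library 1 lowered this log2 fold change to 3.61 and ended the call (adjusted p = 0.0707 by limma, within a range of 8.89e-13 to 0.704 over 21 alternatives).

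**Figure D3:**
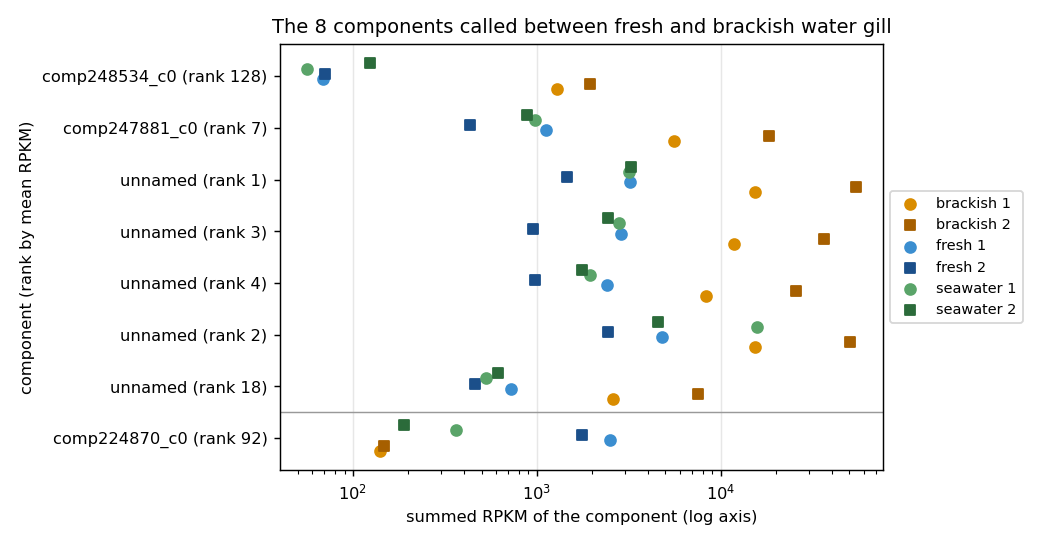
Summed RPKM, on a log axis, of the 8 called components in each of the 6 libraries, 1 point a library, with the component's rank by mean level beside it. In the 7 upper components both brackish water libraries lie to the right of both fresh water libraries, and in comp224870_c0 the fresh water libraries, at 2494 and 1767 RPKM, lie to the right of the brackish water libraries, at 140 and 148.

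Below the threshold of the test, comp235420_c0 had the next smallest p among components higher in fresh water. It stood at 1.68 and 0.300 RPKM in brackish water (40 and 5 reads) and at 34.7 and 66.5 RPKM in fresh water (459 and 674 reads). The closest 2 libraries of the groups differed 20.7-fold, and the seawater libraries, at 0.722 and 0.156 RPKM, lay at the brackish water level. The log2 fold change of 4.72 (SE 0.98) did not pass (adjusted p = 0.0842 by limma, within a range of 1.23e-05 to 0.987 over the alternatives). Nearly all of its level came from a transcript of 429 bases, at 33.8 and 64.9 RPKM in fresh water. With a brackish water mean of 0.989 RPKM, comp235420_c0 was kept only through fresh water, where it is high.

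The ends of the distribution were not called either. The component with the most negative log2 fold change, -5.66, stood at 2995 and 6921 RPKM in brackish water and at 4928 and 0.649 RPKM in fresh water (adjusted p = 0.493 by limma). That value rested on fresh water library 2, since library 1 lay between the 2 brackish water libraries. In seawater this component stood at 12393 and 6142 RPKM. The component with the highest log2 fold change, 5.93, stood at 0.396 and 0 RPKM in brackish water and at 75.7 and 66.7 RPKM in fresh water (adjusted p = 0.142 by limma). Both groups were tight there, while the seawater libraries split, with 80.8 RPKM in library 1 and 0.0512 in library 2. This component too was kept only through fresh water, where it is high.

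The calls turned on the libraries used. Without brackish water library 2, the 8 calls became 0 by limma, with 431 at an unadjusted p under 0.05. Without brackish water library 1 they became 5229, of which 5040 were higher in fresh water, without fresh water library 1 they became 24, without seawater library 1 they became 101 and without seawater library 2 they became 127. Fitted on the 4 compared libraries alone, limma called 99 components, 1.13% of those tested, with 73 higher and 26 lower in fresh water and all 8 among them.

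Across all 8730 components the shift was towards higher RPKM in fresh water, on the deposited scale and with brackish water library 2. The log2 fold change was positive for 7667 components, with a median of 0.90. This median was 0.02 without brackish water library 2 and 1.80 without library 1. Division by TMM factors, which scale each library so that most components come out level, moved this median by -0.95, to -0.04, with 4122 components positive. The factors were 1.49 and 0.385 for brackish water libraries 1 and 2 and 1.47 and 1.86 for the fresh water libraries. Rises on the RPKM scale are therefore to be read against the median of 0.90. Relative to it, comp224870_c0 stood out less, at a log2 fold change of 2.73 once divided by TMM factors. The 7 that fell went from a range of -4.49 to -2.93 to one of -5.60 to -4.05. None of the 8 was called with TMM factors, where limma made 0 calls (567 at an unadjusted p under 0.05), nor by edgeR with TMM on the recovered reads, with 0 calls (638), while DESeq2 called 256, of which 68 were higher, with 7 of the 8 among them. In all 8 the groups also did not overlap with TMM factors. Brackish water library 2 then stood at 5.88 to 13.7 times library 1 in the 7 that fell. In comp224870_c0 brackish water library 2 then stood at 4.09 times library 1, with fresh water at 1697 and 953 RPKM. Seawater then stood at 481 and 224 RPKM in comp224870_c0, with seawater library 2 below brackish water library 2.

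**Figure D4:**
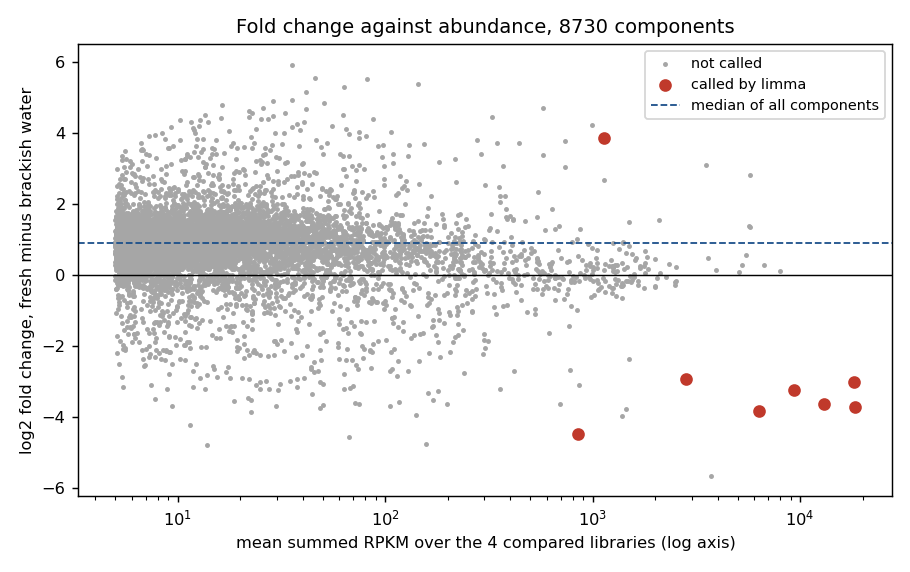
Log2 fold change of fresh minus brackish water against mean summed RPKM on a log axis, 1 point for each of the 8730 components, with the called ones in red and the median of 0.90 as a dashed line. Most components lie above 0, and the 8 called ones lie at a mean of 845 RPKM or more, 7 of them at log2 fold changes of -4.49 to -2.93.

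Components whose groups did not overlap were counted as a description that needs no model. On RPKM 2968 components (34.0%) were higher in both fresh water libraries than in both brackish water libraries, and 430 (4.93%) were lower in both. Were the order of the compared libraries random, a share of 0.333 would separate in one direction or the other. That share is the smallest p an exact permutation of these libraries can give. Separation of a component is therefore not in itself evidence of a change. With TMM factors the balance turned, with 1467 higher and 2126 lower. Of the 2968, 1441 were also higher without overlap with TMM factors, and of the 430, 423 were also lower. The 2968 had median levels of 10.6 and 3.01 RPKM in brackish water, 16.2 and 18.2 in fresh water, and 6.48 and 7.17 in seawater. Among these, brackish water library 1 was the higher one in 90.4%, close to the 88.9% of all components. The 430 had medians of 36.1 and 43.3 RPKM in brackish water, 18.8 and 14.9 in fresh water, and 64.9 and 65.3 in seawater. Among them brackish water library 1 was the higher one in only 44.0%. In 364 of the 430 both seawater libraries also lay above both fresh water libraries, whereas in 2118 of the 2968 both seawater libraries lay below both fresh water libraries. The same counts over all 8730 components were 1199 and 5712. Both sets were chosen by low or high fresh water levels, which in itself favours these positions of seawater. The longest transcript of the components that were lower had a median of 1089 bases, against 1954 bases for those that were higher and 1634 for all.

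The counts in each direction differed between classes of abundance. The classes were cut by the mean of the same 4 libraries, so a component very high in 1 group could reach a high class through that group. On RPKM, the share of components lower in fresh water without overlap went from 2.51% of the 3702 components at 5 to 10 RPKM, through 4.11% of the 3066 at 10 to 30 and 6.44% of the 1274 at 30 to 100, to 17.4% of the 580 at 100 to 1000 and 25.9% of the 108 at 1000 or more. The share that was higher stayed between 31.9% and 37.0% in the 4 lower classes and was 21.3% in the highest. The median log2 fold change was 0.91 at 5 to 10 RPKM and 0.09 at 1000 RPKM or more. With TMM factors these medians were 0.06 and -1.04, and 49.1% of the highest class was lower without overlap against 3.70% higher. The share that was lower thus grew from class to class up to the highest, where it ended at 25.9% on RPKM and at 49.1% with TMM factors, while the sign of the median in the highest class turned between the scales. The brackish water libraries were also closer in the abundant classes, with a median absolute log2 difference of 0.51 at 1000 RPKM or more against 1.88 at 5 to 10 RPKM. In the fresh water libraries the same medians were 0.24 and 0.34. Cut instead by the seawater mean, which the comparison does not use, a choice made after seeing the data, the share that was lower went from 1.03% of the 5145 components under 10 RPKM to 27.4% of the 157 at 1000 RPKM or more. Whether the closeness of the abundant components bears on where the calls fell was not tested. Of the 8 calls, 7 were in the highest class and 1 in the class of 100 to 1000 RPKM.

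**Figure D5:**
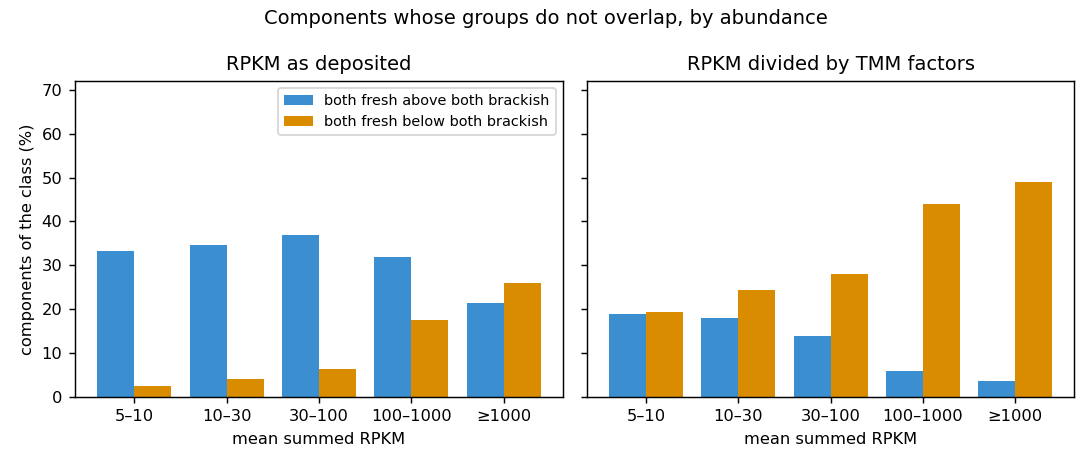
Percentage of the components of each class of mean summed RPKM whose 2 fresh water libraries both lay above (blue) or both below (orange) the 2 brackish water libraries, on RPKM as deposited (left) and divided by TMM factors (right). The share that was lower goes from 2.51% to 25.9% over the classes on RPKM and reaches 49.1% with TMM factors.

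A wider gap left far fewer components. At least 4-fold, on the log2(RPKM + 1) scale, separated the closest libraries of the 2 groups in 134 components that were higher in fresh water and in 27 that were lower. With TMM factors these counts were 61 and 42, and 61 and 25 were common to both scales. The 134 were mostly of low level, with a median mean of 15.3 RPKM and 8 at 100 RPKM or more, and the 27 had a median mean of 44.2 RPKM with 9 at 100 RPKM or more. The 134 had median levels of 1.77 and 0.646 RPKM in brackish water, against 29.93 and 29.95 in fresh water. Of the 134, 105 had a brackish water mean under 5 RPKM and so were kept only through fresh water, where they are high. In the same way, 13 of the 27 were kept only through brackish water. In seawater library 1 the median of the 134 was 25.6 RPKM, close to fresh water, and in seawater library 2 it was 0.798, close to brackish water. Seawater library 1 lay at least 4-fold above both brackish water libraries in 63 of the 134, and seawater library 2 in 0. Because the 134 were chosen for low brackish water levels, such an excess was easier to reach in them. The 27 had medians of 76.5 and 86.2 RPKM in brackish water, 6.56 and 6.99 in fresh water, and 50.8 and 84.3 in seawater. Together the 134 made up 0.495% and 0.781% of all reads in brackish water, against 6.91% and 4.57% in fresh water. For the 27 these shares were 7.19% and 23.2% in brackish water, against 1.69% and 0.717% in fresh water. Of these components, 1 of the 134 and 4 of the 27 were among the 8 called.

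Complete absence played a small part in these components. No reads fell in both brackish water libraries for 4 components and in both fresh water libraries for 2. A component with no reads in brackish water library 2 and reads in the other 3 was found 40 times, and with no reads in brackish water library 1 alone 54 times. In fresh water the same counts were 4 for library 1 and 17 for library 2. The upper limit that a count of 0 allows, taken as 3 reads, corresponds for a transcript of 1 kilobase to between 0.0810 RPKM in brackish water library 1 and 0.129 RPKM in fresh water library 2, and covers counting error only.

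Transcripts of 1 component mostly had the same direction, which the shift common to most components favours in itself. The log2 fold change was positive for 87.8% of all components. Whether transcripts of 1 component shared a direction beyond that shift was not tested. Among the 1283 components with at least 2 transcripts of 5 RPKM or more, all such transcripts were higher in fresh water without overlap in 317. All were lower in 57. Taken singly, 3354 of all 9798 transcripts of 5 RPKM or more were higher without overlap and 586 were lower. In 18 of the 1283 (1.40%), 1 transcript was higher and another lower without overlap. With TMM factors there were 24. By the means of the groups alone, whether or not the libraries overlapped, transcripts of opposite direction occurred in 196 (15.3%). None of the 8 called components was among the 18. In the clearest of the 18, chosen after its values were seen, a transcript of 643 bases stood at 53.4 and 51.9 RPKM in brackish water and at 15.9 and 14.9 RPKM in fresh water. Its partner of 4399 bases stood at 10.4 and 3.02 RPKM in brackish water and at 21.99 and 19.98 RPKM in fresh water. The short transcript was thus lower and the long one higher in both fresh water libraries, while the component sum went from 63.9 and 54.9 RPKM to 37.9 and 34.9 RPKM, with a log2 fold change of -0.69 (adjusted p = 0.656 by limma). In seawater the short transcript stood at 63.4 and 56.1 RPKM and the long one at 5.87 and 7.62 RPKM, near the brackish water levels in both.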

How the data were processed

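The authors deposited, per the file headers, an RPKM value for every assembled transcript in every library, and mean read counts per group, an estimated count averaged over 2 libraries. Which assembler, aligner and counting tool were used is not stated in the labels or headers. The design text speaks of triplicates, and 2 libraries per group were analysed here. RPKM multiplied by length gave whole reads within 0.1 read, and averaged by group these equalled the deposited mean counts for 100% of the listed transcripts. RPKM and reads were summed per component, the transcript identifier without its sequence number. The components that averaged at least 5 RPKM in the 4 compared libraries were tested by limma-trend (limma 3.58.1) on log2(RPKM + 1), a scale that understates folds of low components. All 6 libraries entered 1 fit with group as its term, with 3 residual and 16.0 prior degrees of freedom, and Benjamini-Hochberg adjustment over all 8730 components at 0.05. An exact permutation of 2 against 2 libraries cannot give a two-sided p under 0.333. Because the libraries are deposited as RPKM, edgeR 4.0.16 and DESeq2 1.42.0 on recovered reads are alternatives only. The fits were tested on simulated data. In these the libraries of a group shared 1 composition, unlike the 2 brackish water libraries here. The components, rules and alternatives were chosen with earlier results of these data known. At most 2 components in each direction are named, those with the largest fold change among called components without overlap, filled up by the smallest p. The authors' own test columns were not used.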

Additional observations from a re-analysis of the deposited data

Results flagged for a closer look

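Reads outside the comparison were looked at because the components below the mean of 5 RPKM held a larger share of reads in both fresh water libraries than in both brackish water libraries. The share was 8.01% and 9.67% in fresh water libraries 1 and 2, against 7.97% and 1.68% in brackish water libraries 1 and 2 and 3.83% and 3.85% in seawater. Fresh water library 1 and brackish water library 1 were nearly equal.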

How the results depend on the processing

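The 8 calls became 230 with a mean of at least 1 RPKM (178 higher, 52 lower), 0 with no filter beyond a value above 0, 17 with a pseudocount of 5 (7 higher, 10 lower), 0 with TMM factors, 0 with quantile normalization, 99 on the 4 compared libraries, 0 with each transcript on its own, 0 by edgeR with either TMM or DESeq2 size factors, and 256 by DESeq2 (68 higher, 188 lower). The components or transcripts tested numbered 22869 at 1 RPKM, 285461 with no filter, 9798 with each transcript on its own and 8730 in the others. At an unadjusted p under 0.05 the main fit had 471. These settings with 0 calls had 38563 (no filter), 567 (TMM factors), 934 (quantile), 474 (transcripts), 638 and 607 (edgeR). A pseudocount of 0.1 gave 6 calls and the transcript of highest mean 9. With each library left out in turn the count ran from 0 to 5229, where the lone library of a group is assumed to vary like the others. The cause of these changes was not tested.

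The replicate block called 73 (46 higher, 27 lower), and 27 on the 4 compared libraries. Nothing in the labels ties equal numbers across groups. Differences between libraries 1 and 2 correlated across components at -0.46 between fresh and brackish water, -0.47 between seawater and brackish water and 0.31 between seawater and fresh water. The crossed block called 80 on the 4 compared libraries; both blocks on these 4 were chosen after seeing the data.

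Components without overlap numbered 1467 higher and 2126 lower of 8730 with TMM factors. They numbered 7908 and 678 of 22869 with a mean of at least 1 RPKM, and 85465 and 4418 of 285461 with no filter. These counts grew with the number of components, against 2968 and 430 of 8730 in the main setting. Components with transcripts of opposite direction numbered 56 at 1 RPKM. The 4 named components were chosen for large folds or small p without overlap, so their sign could hardly turn. It was the same under all 21 alternatives. Of these, 12 kept the call of comp224870_c0, and 14 each those of comp248534_c0 and comp247881_c0. Several of these limma fits had infinite prior degrees of freedom. They were those at 1 RPKM, on the 4 compared libraries, without a fresh water or seawater library, and with a block. Such fits take the spread from components of similar level, not from the component's own libraries. The main fit, with 16.0 prior against 3 residual degrees of freedom, does so in large part. The smallest adjusted p of comp224870_c0 came from a fit with infinite prior degrees of freedom, the crossed block. With 2 libraries a group and brackish water libraries that differ this much, the calls are not firm.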
